A study of Camellia sinensis with 6 samples.

Results

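The mitochondrial carrier family was followed in young shoots of the tea plant (Camellia sinensis) cultivar 'Zhonghuang 2', whose new leaves turn yellow in the cold. Its members are the 106 gene models, of 40118 in the deposited count table, whose domain family label is Mito_carr, and they were grouped by the substrate and by the compartment in their protein names. RNA was sequenced from green shoots kept at high temperature (26 °C in the light, 22 °C in the dark), the control, and from etiolated shoots kept at low temperature (18 °C and 14 °C), with 3 libraries in each group. Both groups share the cultivar, a month of growth at 22 °C beforehand, and days of 12 h of light and 12 h of dark. They also share the light level, 200 µmol per square metre and second, and the harvest. It was made when the cold-treated leaves had yellowed after about a further month. Each temperature had its own growth chamber, so the chamber and the temperature cannot be told apart. Whether each library had its own plants is not stated in the labels, and the p-values therefore reflect library-to-library spread that could be technical. In such bulk RNA, fewer cells of a type and less RNA per cell cannot be told apart.

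Mitochondrial carriers are membrane proteins built from repeats of a short transmembrane module, and most sit in the inner mitochondrial membrane. They exchange nucleotides, phosphate, organic acids, amino acids and cofactors between the matrix and the cytosol, which ties respiration to the rest of the cell. In plants some members work instead in the envelope or thylakoid of plastids, in peroxisomes or in the endoplasmic reticulum, and in leaves they feed pathways such as photorespiration and plastid cofactor supply.

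Library totals ran from 15202546 to 15642015 counts. High-temperature replicate 2 stood apart. Its chi-square against replicates 1 and 3 of its group averaged 21.4 and 18.6 over gene models, and the value between those was 4.86. Low-temperature replicate 1 was apart to a lesser degree, with 9.54 and 8.48 against replicates 2 and 3, and 4.96 between those. Leaf identity was checked on 29 gene models for Rubisco small chains, Rubisco activase and chlorophyll-binding proteins. Their summed level was 37736 to 51024 CPM (counts scaled to a common library size) at high temperature and 33393 to 33612 CPM at low temperature, and none was at 0 in all libraries. Of the 27 tested, 14 fell and 3 rose. The number that fell was 18 without high-temperature replicate 2 and 10 without low-temperature replicate 1. It was 6 to 9 without high-temperature replicate 1 or 3 or low-temperature replicate 2 or 3. Markers of dividing cells were all gene models with cyclin-A, cyclin-B, kinesin or aurora in the name, so kinesins were taken whatever their role. Of 112 tested, among 137, 35 fell and 2 rose. Their summed level was 3719.9 to 4545 CPM against 3142 to 3402 CPM, with 7 at 0 throughout. The number that fell was 16 without low-temperature replicate 2 and 17 without low-temperature replicate 3. Vascular markers were models named as laccases, some cellulose synthase catalytic subunits or phloem proteins. The summed level of these 54, of which 2 were at 0 throughout, was 754 to 800.3 CPM against 617 to 711 CPM. Of 39 tested, 3 rose and 3 fell (5 fell without high-temperature replicate 2). Only 1 gene model matched the root names, and it reached at most 0.12 CPM. Over all tested gene models 9.27% rose and 9.65% fell. The shares were 11.1% and 51.9% for the photosynthetic markers and 1.79% and 31.2% for those of dividing cells. For the vascular markers both were 7.69%, below the shares over all tested gene models. The part of these marker shifts in the carrier results was not tested.

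Carrier transcripts were more abundant in the yellowed shoots. Of 80 members with enough counts to be tested, 24 rose at low temperature, 1 fell and 55 did not pass the test, where 9.27% of all 26767 tested gene models rose and 9.65% fell (edgeR quasi-likelihood test, Benjamini-Hochberg adjusted p under 0.05 over all tested gene models). The changes were small: the median log2 change was 0.34 over the tested members and -0.01 over all tested gene models, and at least 2-fold differences were called in 2 members that rose (1.76% of all tested gene models) and 1 that fell (3.03%). All low-temperature libraries lay above all high-temperature ones in 37 tested members and below them in 8, against 18.1% and 18.4% of all tested gene models. Carriers made up 0.318%, 0.267% and 0.299% of all counts in the high-temperature libraries (replicates 1 to 3, in this order here and below), and 0.378%, 0.42% and 0.409% in the low-temperature ones. High-temperature replicate 2 was the lowest of its group in 44 of the 80 tested members, and low-temperature replicate 1 of its group in 39. When high-temperature replicate 2 was left out, 22 members rose and 2 fell, and the median was 0.23. Fewer rose without high-temperature replicate 3 (15), low-temperature replicate 2 (13) or low-temperature replicate 3 (12), but all tested gene models then had fewer calls too (3635, 2606 and 2681, against 5062). Of the 25 called members, 10 kept their call whichever library was left out.

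**Figure D1:**
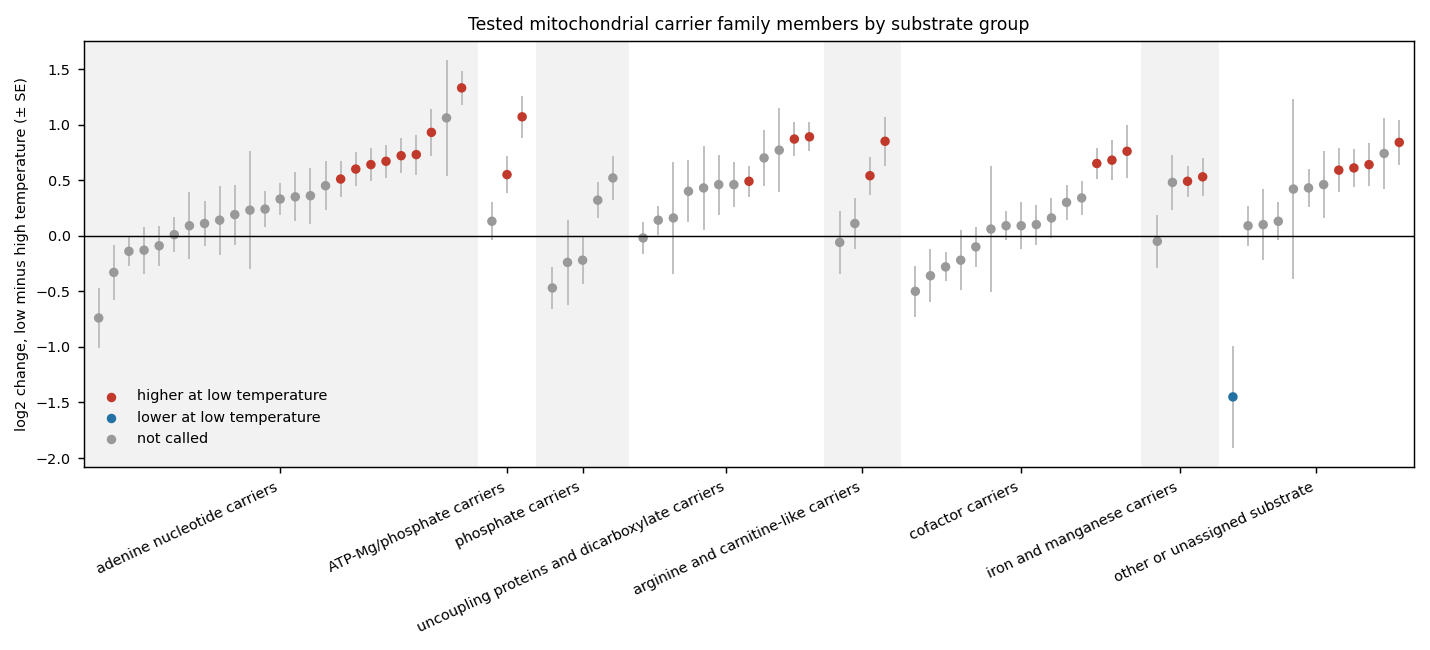
Log2 change (low minus high temperature, vertical axis) of the 80 tested members with standard errors, grouped by substrate along the horizontal axis and sorted within each group. Red points rose, the blue point fell and grey points did not pass the test. The 24 red points occur in 7 of 8 groups, and the phosphate carriers hold none.

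Adenine nucleotide carriers, the largest group with 34 members, exchange ATP, ADP and AMP across organelle membranes. Of 25 tested, 8 rose (32%) and none fell (median 0.33), and 5 rose without low-temperature replicate 3. For comparison with this and the following groups, 9.27% of all tested gene models rose and 9.65% fell. Most groups are small, so a few calls weigh heavily in their shares. The most abundant carrier of the family was an ADP,ATP carrier of the inner mitochondrial membrane (Cha11g002200, sequence 11, 23406090 to 23408042, plus strand), the protein that exports newly made ATP from the matrix. It had 616, 376 and 531 CPM at high temperature and 768, 858 and 892 CPM at low temperature. The groups did not overlap, and replicate 2 was the lowest of the high-temperature libraries. The log2 change was 0.73 ± 0.18 (SE), a 1.65-fold rise (adjusted p = 0.00918), but the call was lost without low-temperature replicate 2 (adjusted p = 0.0523) or 3 (0.0603), and the adjusted p ran from 0.000349 to 0.0617 over 16 alternatives.

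A second model with the same protein name (ChaUn8244.5) had 267, 178 and 235 CPM at high and 373, 371 and 375 CPM at low temperature. Its low-temperature libraries were nearly equal and all lay above the high-temperature ones, a 1.65-fold rise (log2 change 0.72 ± 0.16, adjusted p = 0.00408) that held with any library left out. ADP,ATP carrier protein 2 (Cha06g017470), a model of only 441 coding bases, rose from 5.85 ± 0.887 to 11.2 ± 1.13 CPM (SD, n = 3). Not every abundant ADP,ATP carrier passed the test. ADP,ATP carrier protein 3 (Cha08g010420) had 337, 323 and 315 CPM against 377, 426 and 419.9 CPM, groups that did not overlap, yet it missed the threshold (log2 change 0.33 ± 0.14, adjusted p = 0.115). It was called higher without high-temperature replicate 2 (adjusted p = 0.03) and with DESeq2 (0.0348), and its alternatives reached 0.308. Cha13g010540 had 194, 83.1 and 170.2 CPM at high and 181, 189.6 and 203 CPM at low temperature. High-temperature replicate 1 lay within the low-temperature range, so the groups overlapped, and replicate 2 was far below all other libraries (adjusted p = 0.361). Among all gene models 4 have the plain name ADP,ATP carrier protein, of which 3 are tested members of the family, so reads may be split among them.

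The largest rise of the family was in a thylakoid ADP,ATP carrier (Cha10g004260, sequence 10, 25885184 to 25890292, plus strand), whose Arabidopsis counterpart is a plastid carrier first described as bringing ATP into thylakoids and later as carrying the sulfate donor PAPS. It had 26.4, 23.8 and 27.2 CPM at high and 53.2, 76 and 65.5 CPM at low temperature. Every low-temperature library was clearly above every high-temperature one, a 2.51-fold rise (log2 change 1.33 ± 0.15, adjusted p = 1.53e-05). The other thylakoid carrier model (Cha04g021640) had 16.3, 19.9 and 17.9 CPM against 26.5, 29.9 and 28.3 CPM, again without overlap (log2 change 0.64 ± 0.15, adjusted p = 0.00631). Both calls held with any library left out.

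Among the other nucleotide carriers, 1 of 4 models named ADNT1, an AMP and ATP exchanger in Arabidopsis, rose (Cha06g008710, from 30 ± 3.6 to 47.7 ± 5.54 CPM). The most abundant ADNT1 model (Cha02g000980) did not pass the test, with 87.8 ± 7.89 against 79.7 ± 3.13 CPM and no overlap (adjusted p = 0.485). BTL1 (Cha15g012300), of the Brittle1-like branch, rose 1.52-fold from 54.8 ± 12.2 to 83.1 ± 4.6 CPM, a call lost without low-temperature replicate 3 (adjusted p = 0.063, from 0.0021 to 0.0644 over its alternatives). A BT1 model (Cha12g007320), of a class that moves adenine nucleotides out of plastids in Arabidopsis, rose from 15 ± 1.05 to 21.4 ± 1.13 CPM. That call was lost without high-temperature replicate 1 (adjusted p = 0.0674) or 3 (0.0527), or low-temperature replicate 2 (0.0887) or 3 (0.13), with 0.0236 the lowest over its alternatives. None of the 3 tested peroxisomal adenine nucleotide carriers, which supply ATP for fatty acid breakdown, passed the test, with log2 changes from -0.33 to 0.01. A carrier named after Arabidopsis At5g56450 (Cha12g005640) had 8.02, 4.74 and 8.68 CPM at high and 4.74, 4.15 and 3.95 CPM at low temperature. It missed the threshold (log2 change -0.74 ± 0.27, adjusted p = 0.0636) but was called lower without high-temperature replicate 2, which lay at the low-temperature level (adjusted p = 0.00811, from 0.00811 to 0.234 over its alternatives).

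**Figure D2:**
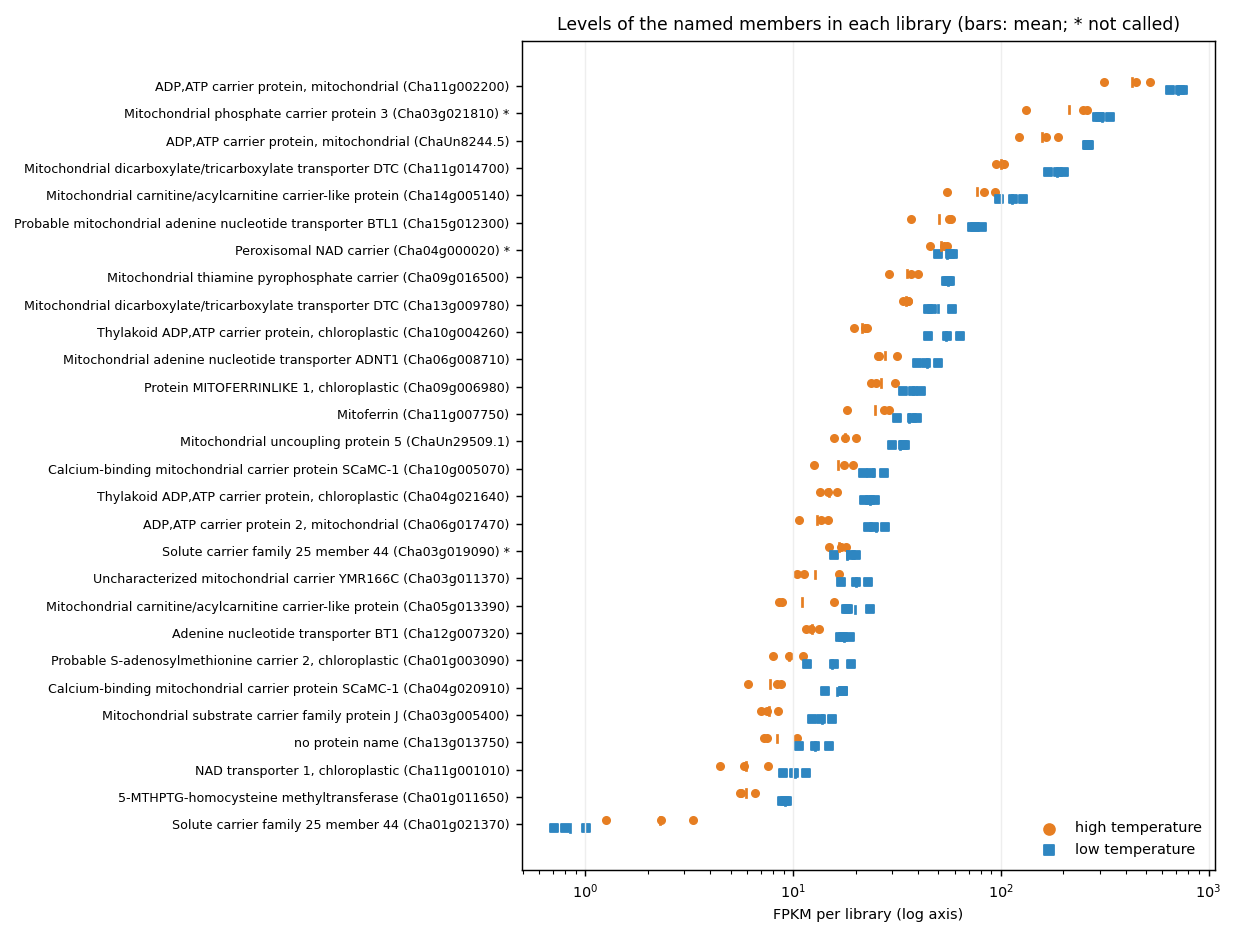
FPKM in each library (horizontal log axis) of the 25 called members and of the most abundant member of each substrate group, ordered by mean level. Circles are high-temperature and squares low-temperature libraries, bars are group means and an asterisk marks members that were not called. Squares lie to the right of circles in all called members but the lowest in the plot.

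Calcium-binding carriers of the SCaMC type exchange ATP-Mg for phosphate and so set the size of the adenine nucleotide pool in the matrix. Of 3 models, all named SCaMC-1 and all tested, 2 rose. Cha04g020910 (sequence 4, 176485813 to 176490212, minus strand) had 9.79, 6.84 and 9.34 CPM at high and 15.9, 19.4 and 19.3 CPM at low temperature. The groups did not overlap, and the 2.11-fold rise (log2 change 1.07 ± 0.19, adjusted p = 0.000898) held with any library left out. Cha10g005070 rose 1.46-fold, from 17.6 ± 3.68 to 25.7 ± 3.08 CPM (adjusted p = 0.0352). That call was lost without high-temperature replicate 2 (adjusted p = 0.0837) or 3 (0.0682), or low-temperature replicate 2 (0.176) or 3 (0.0959), and its alternatives began at 0.0187. The remaining model (Cha15g007040) had 16 ± 1.46 against 17.5 ± 2.18 CPM (adjusted p = 0.647). It is the only one of the 3 for which the deposited annotation lists the EF-hand pair, the calcium-binding domain of this class, and its coding length is 1674 bases against 1047 and 1101 bases for the pair that rose.

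Phosphate carriers bring the phosphate needed for ATP synthesis into the matrix. None of the 5 members, all tested, passed the test in either direction (median -0.22, but 0.08 without high-temperature replicate 3). With 18.9% of all tested gene models called, 5 members are too few for this to set the group apart. The most abundant (Cha03g021810, phosphate carrier protein 3) had 294, 150.5 and 279 CPM at high and 377, 329 and 335 CPM at low temperature. All low-temperature libraries were higher, but high-temperature replicate 2 was far below the other high-temperature libraries, and the log2 change of 0.52 ± 0.2 missed the threshold (adjusted p = 0.0843, from 0.0282 to 0.217 over its alternatives). It was called higher with the replicate block (0.0282), with library totals (0.0433), with DESeq2 (0.0462) and without high-temperature replicate 1 (0.0438). The next in level, Cha01g025470, had 153 ± 34.9 against 191 ± 11.2 CPM. Another model of that name (Cha15g006520) lay the other way, with 15.2, 11.9 and 13.1 CPM against 10.1, 10.1 and 8.88 CPM, groups that did not overlap. It was called lower only without high-temperature replicate 2 (adjusted p = 0.0442, against 0.0889 with all libraries, and up to 0.27 over its alternatives).

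Organic acid carriers and uncoupling proteins move malate, oxaloacetate, 2-oxoglutarate, citrate or succinate across the inner membrane or let protons back into the matrix. Of 21 members 12 were tested, 3 rose and none fell (median 0.46, or 0.22 without high-temperature replicate 2). The share that rose was 25%, against 9.27% of all tested gene models. The dicarboxylate/tricarboxylate transporter DTC (Cha11g014700, sequence 11, 108799804 to 108827235, minus strand) exchanges organic acids of the citrate cycle. It had 92.9, 87 and 94.4 CPM at high and 154, 183 and 170.3 CPM at low temperature. The libraries of each group were close together and the groups far apart, a 1.85-fold rise (log2 change 0.89 ± 0.13, adjusted p = 0.000183) that held with any library left out. A second DTC model (Cha13g009780) rose from 32.1 ± 0.813 to 45.1 ± 6.75 CPM, but lost its call without high-temperature replicate 3 (adjusted p = 0.0639) or low-temperature replicate 2 (0.158) or 3 (0.0536), with 0.0141 the lowest over its alternatives. That name is shared by 7 models, between which the authors' counting may have divided reads.

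Uncoupling protein 5, a dicarboxylate carrier in Arabidopsis despite its name, is represented by 5 models, all tested. ChaUn29509.1 had 16.4, 14.8 and 18.7 CPM at high and 32, 31.5 and 27.7 CPM at low temperature. It rose 1.83-fold without overlap (log2 change 0.87 ± 0.15, adjusted p = 0.000862), and the call held with any library left out. The other 4 models of that name had log2 changes of 0.43 to 0.77 and did not pass the test, although 3 of the 5 rose without high-temperature replicate 3 and 2 without low-temperature replicate 3. Uncoupling proteins 1 and 2, of the proton-leak type, gave no call: uncoupling protein 1 (Cha04g021270) had 32.4 ± 3.09 against 32 ± 2.04 CPM, and uncoupling protein 2 (Cha04g014980) had 41.8 ± 2.12 against 46.1 ± 1.27 CPM (adjusted p of 0.946 and 0.492). The difference between the uncoupling proteins was not tested. The succinate-fumarate transporter (Cha10g004060) had 36.3, 18.3 and 33.7 CPM against 40.9, 40.1 and 39.9 CPM, and did not pass the test (adjusted p = 0.126).

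Carriers named after carnitine include BOU (bout de souffle), which Arabidopsis seedlings need for photorespiration and growth in the light. Both tea models rose. Cha14g005140 had 85, 50.5 and 75.1 CPM at high and 88.9, 116 and 102 CPM at low temperature, groups that did not overlap though high-temperature replicate 1 and low-temperature replicate 1 lay close together (log2 change 0.54 ± 0.17, adjusted p = 0.0321). Cha05g013390 had 16, 9.24 and 8.81 CPM against 18.9, 24 and 18.3 CPM (log2 change 0.85 ± 0.22, adjusted p = 0.0115). Both lost their calls without high-temperature replicate 3 (adjusted p of 0.0604 and 0.0574) or low-temperature replicate 2 (0.166 and 0.083), and Cha14g005140 also without low-temperature replicate 3 (0.0964); their alternatives began at 0.0109 and 0.00123. The arginine transporters BAC1 and BAC2, which carry basic amino acids, did not pass the test (log2 changes of 0.11 and -0.06).

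Cofactor carriers had 15 of 17 members tested, and 3 rose (20%, against 9.27% of all tested gene models). Their median was 0.09, from 0.02 to 0.19 when any 1 library was left out. Only 1 rose without high-temperature replicate 3 or low-temperature replicate 2 or 3. The thiamine pyrophosphate carrier (Cha09g016500, sequence 9, 143346574 to 143369436, minus strand) supplies the cofactor of matrix dehydrogenases such as those of the citrate cycle. It had 47, 37.6 and 51 CPM at high and 70.8, 72.7 and 69.2 CPM at low temperature. All low-temperature libraries were nearly equal and higher, a 1.57-fold rise (log2 change 0.65 ± 0.14, adjusted p = 0.00319) that held with any library left out. A plastid S-adenosylmethionine carrier (Cha01g003090), which brings the methyl donor into plastids for methylation reactions including those of chlorophyll synthesis, rose from 24.4 ± 4.19 to 39.2 ± 9.15 CPM. That call was lost without high-temperature replicate 3 (adjusted p = 0.0686) or low-temperature replicate 2 (0.107) or 3 (0.0543), with 0.00178 the lowest over its alternatives. The other 3 S-adenosylmethionine carrier models did not pass the test.

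Of 10 carriers for NAD, the hydride-carrying coenzyme of respiration, 8 were tested and 1 rose. That share, 12.5%, is near the 9.27% over all tested gene models. NAD transporter 1 of the plastid (Cha11g001010) had 5.57, 7.44 and 4.27 CPM at high and 11.1, 8.63 and 9.66 CPM at low temperature (log2 change 0.76 ± 0.24, adjusted p = 0.0309). The groups did not overlap, but the call held only when high-temperature replicate 2 was the library left out, and the adjusted p without another library was 0.0596 to 0.131 (from 0.00449 over its alternatives). The most abundant cofactor carrier, a peroxisomal NAD carrier (Cha04g000020), had 50, 61.3 and 58.6 CPM against 64.2, 62.2 and 54.4 CPM, overlapping groups (adjusted p = 0.692).

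Iron enters mitochondria through mitoferrins, and 2 of 4 tested members of the iron and manganese group rose (median 0.49, or 0.28 without high-temperature replicate 2). MITOFERRINLIKE 1 of the chloroplast (Cha09g006980) had 44.3, 34.3 and 35.9 CPM at high and 59, 48.4 and 53.6 CPM at low temperature (log2 change 0.49 ± 0.14, adjusted p = 0.0215). A mitoferrin (Cha11g007750) had 28.6, 18.1 and 27.2 CPM against 39, 31.3 and 36.6 CPM (log2 change 0.53 ± 0.17, adjusted p = 0.0373). The groups did not overlap in either, yet neither call was stable. MITOFERRINLIKE 1 lost it without high-temperature replicate 3 (adjusted p = 0.091) or low-temperature replicate 1 (0.0809) or 3 (0.0807), with 0.0121 the lowest over its alternatives. The mitoferrin kept it only without high-temperature replicate 1, and had an adjusted p of 0.0538 to 0.132 without another library (from 0.0156 over its alternatives). MTM1 (Cha02g001030), linked to manganese superoxide dismutase in Arabidopsis, had 5.7 ± 0.919 against 5.49 ± 0.406 CPM.

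Members with no assigned substrate numbered 17, of which 12 were tested, 4 rose and 1 fell (1 to 3 rose when any 1 library was left out). The shares were 33.3% and 8.33%, against 9.27% and 9.65% of all tested gene models. A model named substrate carrier family protein J after a slime mould protein (Cha03g005400) had 6.46, 7.08 and 7.89 CPM at high and 11.4, 14.3 and 12.6 CPM at low temperature. It rose 1.79-fold without overlap (log2 change 0.84 ± 0.2, adjusted p = 0.00651), and the call held with any library left out. A carrier named after yeast YMR166C (Cha03g011370) rose from 13.3 ± 3.41 to 20.7 ± 2.99 CPM, but not without high-temperature replicate 3 (adjusted p = 0.117) or low-temperature replicate 1 (0.118) or 3 (0.085), with 0.00718 the lowest over its alternatives. Cha13g013750, which has no protein name, rose from 9.72 ± 2.01 to 14.7 ± 2.44 CPM (adjusted p = 0.0481), a call that held only when high-temperature replicate 3 was the library left out (0.0589 to 0.179 without another, from 0.0289 over its alternatives).

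Cha01g011650 carries the family's domain together with the amino-terminal domain of a methionine synthase, whose name it bears, and rose from 11.5 ± 1.16 to 17.6 ± 0.441 CPM. Its 1911 coding bases may join parts of separate genes, so its reads need not come from a carrier. The call was lost without high-temperature replicate 3 (adjusted p = 0.0658) or low-temperature replicate 2 (0.0548) or 3 (0.0659), with 0.00584 the lowest over its alternatives. The single member that fell (Cha01g021370) is named after solute carrier family 25 member 44, a carrier of branched-chain amino acids in mammals. It had 21, 63 and 40 counts at high and 12, 18 and 14 counts at low temperature (log2 change -1.45 ± 0.46, adjusted p = 0.0357). High-temperature replicate 1 lay near the low-temperature libraries, and the call held only when that library was left out, with an adjusted p of 0.0763 to 0.176 without another (from 0.0149 over its alternatives). The most abundant model of that name (Cha03g019090) had 16.2 ± 1.55 against 17.7 ± 2.11 CPM, overlapping groups.

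**Figure D3:**
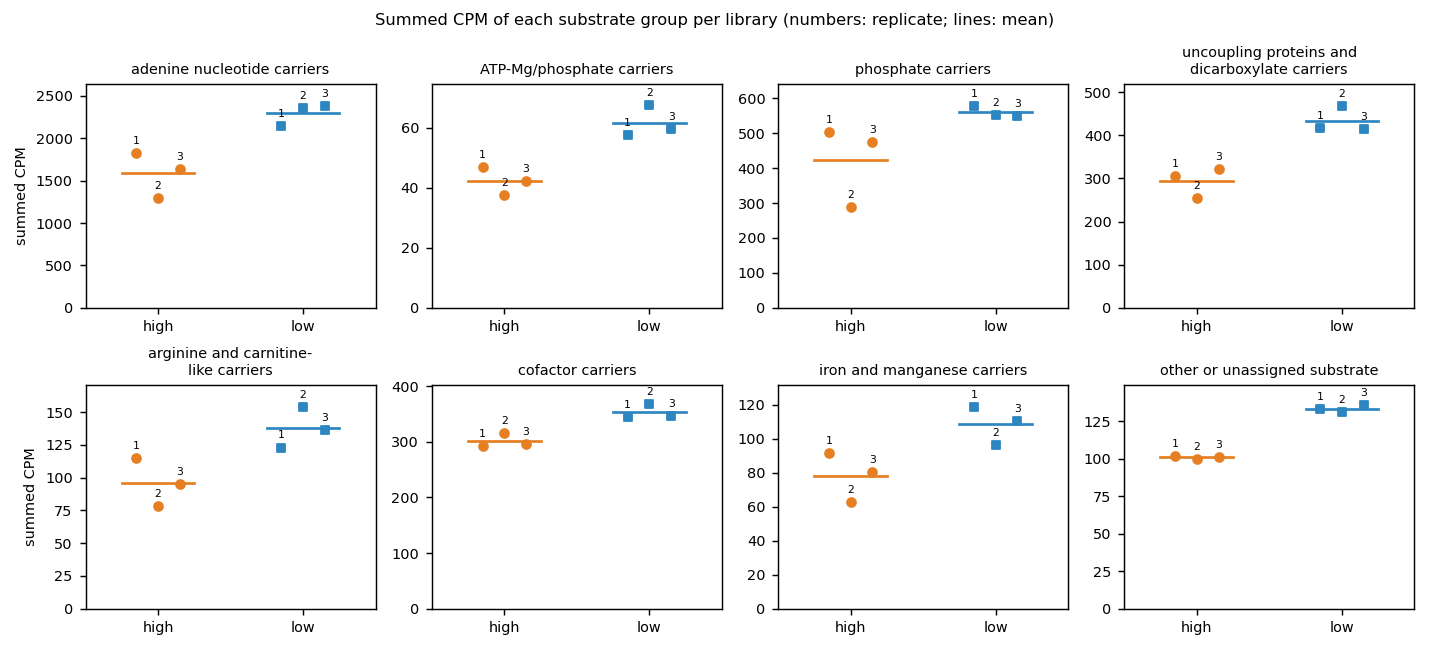
Summed CPM (vertical axis, from 0) of each substrate group in each library, with the replicate number above each point and lines at group means. In all 8 groups the low-temperature libraries lie above the high-temperature ones, and high-temperature replicate 2 is lowest in 7 of them, most plainly for phosphate carriers (289.8 CPM against 504 and 474 CPM).

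For comparison, 9.27% of all tested gene models rose and 9.65% fell. In 18.1% of them every low-temperature library lay above every high-temperature one. Sorted by the compartment in the protein name, carriers labelled chloroplastic had the highest share of calls. All 7 were tested, 5 rose (the thylakoid ADP,ATP carriers, the S-adenosylmethionine carrier, NAD transporter 1 and MITOFERRINLIKE 1), and in all 7 every low-temperature library lay above every high-temperature one. The other 2 were the second NAD transporter 1 model (ChaUn10320.9, 35.2 ± 6.57 against 44.5 ± 3.47 CPM) and folate transporter 1 (Cha01g017130, 11.4 ± 0.327 against 12.8 ± 1.16 CPM). Their summed level was 169, 164 and 145 CPM at high and 234, 273 and 253 CPM at low temperature, and the median log2 change was 0.64. Without high-temperature replicate 2 the same number rose, 5, but 2 rose without high-temperature replicate 3 or low-temperature replicate 3, and 3 without low-temperature replicate 1 or 2. Of 53 tested members with mitochondria alone in the name 16 rose and none fell (median 0.43, or 0.28 without high-temperature replicate 2), and 10 rose without low-temperature replicate 2 or 3. Among 6 named for both organelles 1 rose. None of 5 tested peroxisomal carriers was called with all libraries or with any 1 left out, and their median was -0.13 (-0.25 to -0.02 when any 1 library was left out). Their summed level was 121, 142 and 136 CPM against 132, 129.8 and 119 CPM, so that the groups overlapped. With 18.9% of all tested gene models called, 5 members are too few for the lack of peroxisomal calls to set them apart. The difference between compartments was not tested.

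**Figure D4:**
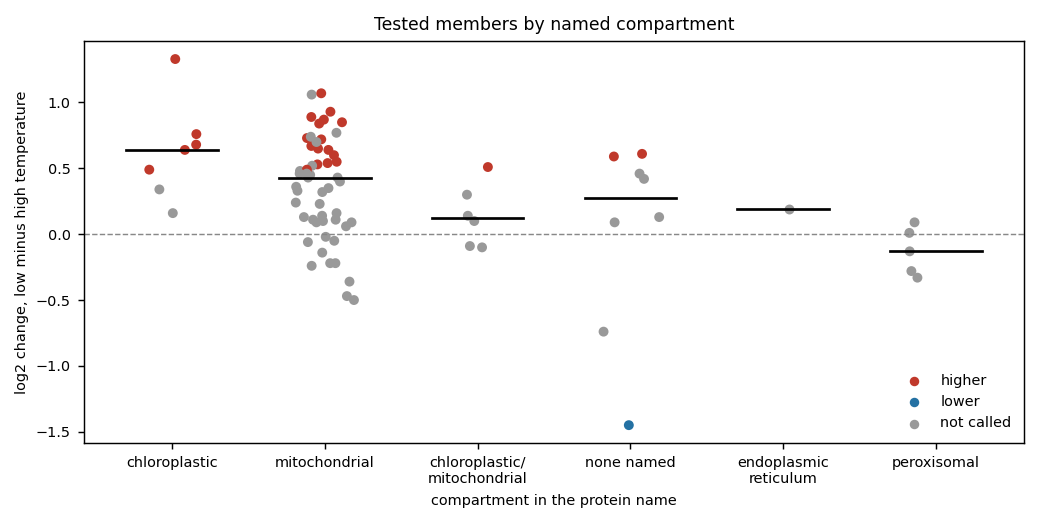
Log2 change (low minus high temperature, vertical axis) of tested members by the compartment in the protein name, with a line at each median. Red points rose, the blue point fell and grey points did not pass the test. All 7 chloroplastic members lie above 0, and the 5 peroxisomal ones lie between -0.33 and 0.09.

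The family was uneven in level and in the state of its gene models. The 5 most abundant members, namely 4 ADP,ATP carriers and phosphate carrier protein 3, held 48.6% of its summed FPKM (fragments per kilobase of coding length, scaled per library by the authors). The 26 members that were not tested had at most 13 counts in any library, and 11 of them were at 0 in all. Their median coding length was 472.5 bases against 1041 bases for tested members, and 19 of them, but only 4 of the tested, were under 750 bases, a limit chosen after the lengths were seen. Both models named uncoupling protein 4 were among the untested. No tested member passed the count filter through 1 group alone, and no member overlapped another gene model.

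Some members lie next to each other. Models Cha04g005350 and Cha04g005360 of uncoupling protein 5, both of 1038 coding bases, are 32255 bases apart on sequence 4 with no model between them. They had 11.6, 4.02 and 13.3 CPM for the first and 24.2, 13.4 and 33.4 CPM for the second at high temperature, and 13.9, 15.8 and 9.2 CPM and 34.6, 36.7 and 26.4 CPM at low temperature. In both, high-temperature replicate 2 was the lowest library, and reads of such near copies may be split between them. Cha08g010410 and Cha08g010420, both ADP,ATP carrier protein 3 of 1149 bases, are 46607 bases apart on sequence 8 and very unequal, at 1.53 against 351 FPKM at low temperature. A run of 3 NAD transporter 2 models lies on sequence 10 (Cha10g011470, Cha10g011480 and Cha10g011500), and none of them passed the test.

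Partners of the carriers in mitochondrial metabolism did not share one direction. For comparison here and below, 9.27% of all tested gene models rose and 9.65% fell. Most of the lists are small, so a few calls weigh heavily in their shares, and no list was tested against all gene models. The TIM and TOM machinery, which imports carriers and other proteins, had 5 higher and 2 lower calls among 26 (median -0.02). TOM1-like protein 2, a vesicle-sorting protein whose 2 models the words of the list also matched, is not counted here, and neither model was called. Both TIM22 subunits, of the complex that inserts carriers into the inner membrane, missed the threshold (TIM22-2, Cha08g017360, 86.9 ± 8.49 against 111 ± 8.24 CPM, adjusted p = 0.0719). Without high-temperature replicate 2 the import list had 2 higher and 3 lower calls, and without any other library but high-temperature replicate 1 it also had 2 higher. Among porins, the outer membrane channels, 2 of 10 tested rose and none fell, for example porin 2 (Cha03g017580, 52.7 to 70 CPM), but 0 were called without high-temperature replicate 3 or low-temperature replicate 2 or 3. Of the mitochondrial pyruvate carriers, which belong to another family, pyruvate carrier 4 (Cha07g007670) fell from 97.4 ± 10.5 to 68.4 ± 4.01 CPM, a call lost without high-temperature replicate 1 or low-temperature replicate 2 or 3. The other tested model was not called.

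Among citrate cycle enzymes 8 of 43 tested rose and 3 fell (median 0.02), leaving out ATP-citrate synthase, a cytosolic enzyme that splits citrate and that the words of the list also matched. It was set aside after the values were seen, and with it the list had 8 higher and 7 lower calls among 50. The 43 still include models named for other compartments. Examples are a cytoplasmic aconitase (Cha05g014390), which is among the 8 that rose, and a glyoxysomal citrate synthase (Cha08g008970), which was not called. Without low-temperature replicate 2, 3 of the enzymes rose and 1 fell, and without low-temperature replicate 3, 4 rose and 1 fell. Without high-temperature replicate 3, 5 rose and 1 fell. Those that rose include aconitase 2 (Cha08g011940, 102 to 159 CPM) and 2-oxoglutarate dehydrogenase (Cha01g003650, 146 to 211 CPM). Those that fell were 2 models of the succinate dehydrogenase flavoprotein subunit and an assembly factor of that enzyme. Another assembly factor (Cha13g012880) was called higher, from 3.56 to 5.95 CPM, close to the threshold (adjusted p = 0.0498). Of 11 tested models for the enzyme and its assembly factors, 8 had positive log2 changes (median 0.1, or -0.05 without high-temperature replicate 2). Mitochondrial ATP synthase, which uses the phosphate and ADP that carriers import, was called lower in 6 of 17 tested gene models and higher in 1 (median -0.02). Several of these models share a subunit name. The 3 falls of at least 2-fold were in models of low level. They were subunit alpha (ChaUn2147.26, 15.6 to 3.27 CPM), subunit 9 (ChaUn11151.2, 5.07 to 1.27 CPM) and a subunit beta model (Cha14g006530, 9.67 to 4.33 CPM). The alpha and subunit 9 models lie on unplaced sequences, and whether they are nuclear genes was not tested. A subunit d model (Cha11g005120) fell from 175 to 118 CPM. The most abundant model, of subunit beta (Cha06g015390), was not called, with 541 against 696 CPM. The summed level of the list was 1718, 1514 and 1722 CPM at high and 1838, 1678 and 1702 CPM at low temperature, so the groups overlapped. Alternative oxidase and alternative NAD(P)H dehydrogenases, which bypass proton pumping, gave 2 calls in each direction among 9 tested (0 higher without low-temperature replicate 2 or 3, 1 without high-temperature replicate 2 or 3). One that fell was an alternative oxidase (Cha02g013640, 29.3 to 16.6 CPM). The list also holds an oxidase named for plastids (Cha07g007610, not called) and dehydrogenases named for both plastids and mitochondria, of which Cha01g014460 was called higher.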

How the data were processed

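Members were the gene models labelled Mito_carr in the deposited count table. The members, groups and lists were chosen with earlier results of these data known. Word patterns on protein names set the substrate groups. The thiamine pyrophosphate carrier and the methionine synthase model were moved after the patterns had first put them with phosphate and amino acid carriers. Named were every called member and the most abundant of each group. Other members, and the partner genes, were named after their values were seen.

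The authors deposited raw counts and FPKM per gene model. Per the submitters' processing notes, HISAT2 2.0.5 and featureCounts 1.5.0-p3 were used beside fastp, CASAVA 1.8.2, R 4.1.0 and DESeq2 1.20.0, without their roles or order. Build and strand setting were not given in the sources used here. Sense and antisense reads cannot therefore be told apart. Coordinates are those of the deposited tables, and numbered sequences are named as there. The reference gene table shares 0 identifiers with the tables. The deposited FPKM divide counts by length and by 1 divisor per library, 0.977 to 1.13 times the library total (highest in high-temperature replicate 2). All 106 member lengths are multiples of 3, hence coding length.

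The test was edgeR's robust quasi-likelihood F test on the counts (edgeR 4.0.16, R 4.3.3), with TMM scaling, temperature as the only term and filterByExpr at 10 counts. P-values were Benjamini-Hochberg adjusted over the 26767 tested gene models. Standard errors were the log2 change over the root of F, and CPM use TMM library sizes. Tried as alternatives were an adjusted p under 0.01, limma 3.58.1 on log2 FPKM (pseudocount 1 or 0.1), DESeq2 1.42.0, a replicate block, other scalings, other filters and the omission of single libraries. On simulated counts for low against high temperature over 26767 gene models, recovery was 12% for 50 genes altered by 1.5-fold, 76% for 2-fold, 96% for 4-fold and 100% for 8-fold, with 17 calls among 26567 unchanged genes. Counts limit precision: a count of 3 is 0.18 to 0.204 CPM.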

Additional observations from a re-analysis of the deposited data

How the results depend on the processing

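Against 24 carriers called higher and 1 lower, counts were within 1.5 times for the higher calls under every other scaling and count filter, DESeq2 and both filtered FPKM fits. Higher calls fell to 12 with unfiltered log2(FPKM + 1) and to 11 at an adjusted p under 0.01. Lower calls were 0 with a minimum count of 30, with each of the FPKM fits and at the stricter threshold. The count of all called gene models, 5062, was 2980 with unfiltered FPKM and 2423 at the stricter threshold. The median of 0.34 was 0.17 with unfiltered FPKM and 0.31 to 0.36 under the other scalings, filters and tools. Leaving out 1 library gave 12 to 22 higher, 0 to 2 lower, a median of 0.23 to 0.44 and 2606 to 5621 calls over all gene models. The called members and the most abundant of each group, 28 in all, kept their sign under every alternative that gave them a value. Other members given above with changes near 0 need not, such as uncoupling protein 1 (-0.02, but 0.05 without high-temperature replicate 2). All 25 calls held with DESeq2, 20 with library totals only, and 10 in all 16 alternatives other than the stricter threshold.

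Same-numbered libraries of the groups did not deviate together (correlations of -0.0113, 0.0399 and -0.00939), so the numbers were not taken as pairs. With the replicate number as a block 24 carriers were called higher, 1 lower, and 4805 gene models in all, and Cha13g013750 lost its call. The simulation recovered few 1.5-fold changes, which is the size of many carrier differences. It left 26567 of 26767 genes unchanged, so it altered far fewer genes than the 5062 called in the data. Adjustment over all genes is stricter in that setting, and recovery in the data may therefore be higher than simulated. An uncalled carrier is still not shown to be unchanged.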
